A study of Mus musculus with 8 samples.

Results

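EGFR, ERBB2, ERBB3 and MET are receptor tyrosine kinases, and Errfi1 encodes a feedback inhibitor that binds the kinase domains of the EGFR family. The binding of the glucocorticoid receptor (GR) and of FOXO1 in mouse liver was described here around these 5 genes, of 55450 annotated genes. GR and FOXO1 are transcription factors, the first activated by glucocorticoid hormone and the second held in the cytoplasm by insulin signalling. The genes were chosen on peaks of these same lists, so their peaks are described without a test. Merging the overlapping peak regions of the 6 GR lists gave 51431 sites, of which 232 had their centre within 200 kb of the start of a member gene. The FOXO1 list held 8394 rows, of which 46 lay in the same windows.

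GR was mapped by chromatin immunoprecipitation and sequencing (ChIP-seq) in livers of male C57BL/6J mice, 12 weeks old when the study began and killed at zeitgeber time 12, the hour of lights-off. Each group held 2 libraries, which the study calls biological replicates. Control mice (ctrl.) ate freely and, for the final week, at night. Calorically restricted mice (cal. res.) were brought gradually to 40% less food, given at lights-off, and CORT mice were fed at night and received 5 mg/kg corticosterone intraperitoneally on 7 days. The labels do not say whether the ctrl. mice of the GR libraries received vehicle. FOXO1 was precipitated from 2 cal. res. livers with a pair of antibodies, and its peaks were called once on the merged reads, so the FOXO1 list has no replicate spread. The marker genes of liver cannot be read from peak lists, so the tissue label was not checked.

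Peak lists differed in length, from 12458 distinct regions in ctrl. replicate 2 to 39136 for CORT replicate 2. The other lists held 36234 (ctrl. replicate 1), 22707 and 18747 (cal. res.) and 29473 (CORT replicate 1). The library names in the labels follow 2 styles, the first shared by ctrl. replicate 2 and the cal. res. libraries, the second by ctrl. replicate 1 and the CORT libraries. What the style stands for is not stated, and cal. res. and CORT cannot be told apart from it. A site counted as held by a group only if it was found in both libraries of that group. Heights are given as the within-list percentile of the fold enrichment of each region (signal at the summit over local background), where 100 is the highest region of that list. With 2 libraries against 2, no two-sided exact permutation test can give a p below 0.333. The sites just inside the 200 kb limit lay between 173.4 and 199.1 kb from the gene starts with mean percentiles of 3.18 to 77.2, and the sites just outside lay between 201.1 and 222.8 kb with mean percentiles of 0.0424 to 56.4.

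EGF-type ligands bind EGFR, neuregulins bind ERBB3, and hepatocyte growth factor binds MET. ERBB2 has no known ligand and ERBB3 has a very weak kinase, so both signal in pairs with other family members. The active receptors recruit adaptors such as GRB2 and GAB1 and switch on the RAS-MAPK and phosphoinositide 3-kinase routes. In liver, EGFR and MET are known for driving hepatocyte survival and regeneration. The product of Errfi1, also called MIG6, is made in response to growth factors and to glucocorticoids and closes a negative feedback loop on EGFR.

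The 200 bases around the highest summit are shown for the highest-ranked GR site of each gene, because these sites carry the comparison of the lists, and for a second Errfi1 site and an intronic Met site described below. Sequences are from GRCm38 (mm10), plus strand, in lower case. Capitals mark matches on either strand to the palindromic GR element GNACANNNTGTNC, to the hexamer AGAACA or to the forkhead sequence TGTTTAC, where N is any base.
Errfi1 -167.6 kb, chr4:150685191-150685390: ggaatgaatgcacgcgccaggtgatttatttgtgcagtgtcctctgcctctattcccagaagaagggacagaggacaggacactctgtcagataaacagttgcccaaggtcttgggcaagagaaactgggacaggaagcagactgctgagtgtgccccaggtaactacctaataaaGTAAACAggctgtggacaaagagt
Errfi1 -97.9 kb, chr4:150755572-150755771: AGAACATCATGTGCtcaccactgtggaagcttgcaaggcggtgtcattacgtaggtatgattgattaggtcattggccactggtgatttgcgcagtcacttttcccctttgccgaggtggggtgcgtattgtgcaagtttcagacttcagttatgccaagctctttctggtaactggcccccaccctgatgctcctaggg
Egfr -10.1 kb, chr11:16742390-16742589: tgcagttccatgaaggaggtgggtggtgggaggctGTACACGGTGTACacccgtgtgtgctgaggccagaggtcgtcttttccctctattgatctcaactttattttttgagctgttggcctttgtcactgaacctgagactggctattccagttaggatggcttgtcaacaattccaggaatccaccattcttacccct
Erbb2 -119.1 kb, chr11:98293214-98293413: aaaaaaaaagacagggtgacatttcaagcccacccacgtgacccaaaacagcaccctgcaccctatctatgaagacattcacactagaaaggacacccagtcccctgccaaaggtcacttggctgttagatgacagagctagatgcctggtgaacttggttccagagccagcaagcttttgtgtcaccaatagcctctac
Erbb3 -9.0 kb, chr10:128598540-128598739: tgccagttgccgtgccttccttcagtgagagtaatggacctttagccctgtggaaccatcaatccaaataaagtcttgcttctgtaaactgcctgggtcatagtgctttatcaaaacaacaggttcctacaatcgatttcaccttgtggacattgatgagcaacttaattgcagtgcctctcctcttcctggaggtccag
Met +28.3 kb, chr6:17491603-17491802: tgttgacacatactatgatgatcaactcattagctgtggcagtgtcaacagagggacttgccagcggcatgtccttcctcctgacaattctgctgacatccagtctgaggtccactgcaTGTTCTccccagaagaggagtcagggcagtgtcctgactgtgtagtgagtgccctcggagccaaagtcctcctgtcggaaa
Met +14.6 kb, chr6:17478352-17478551: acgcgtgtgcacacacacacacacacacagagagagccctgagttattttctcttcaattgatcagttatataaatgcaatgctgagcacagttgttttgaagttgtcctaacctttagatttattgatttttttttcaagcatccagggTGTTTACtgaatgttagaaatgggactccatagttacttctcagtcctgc
The Egfr -10.1 kb and Errfi1 -97.9 kb windows held the palindromic element, at base 36 and base 2. The Errfi1 -167.6 kb and Met +14.6 kb windows held the forkhead sequence, at base 177 and base 151. The Met +28.3 kb window held the hexamer, and the Erbb2 and Erbb3 windows held none of the 3 sequences.

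Errfi1 (ENSMUSG00000028967.10, chr4:150853919-150868892, plus strand) was surrounded by the most highly ranked GR binding of the 5 genes. Its window held 37 sites, of which 15 (40.5%) were held by all 3 groups, against 15.7% of all sites. A string of 11 of these shared sites ran from -167.6 to -54.3 kb, outside protein-coding genes. The nearest protein-coding start was that of Slc45a1 for 6 of the 11 and that of Errfi1 for 5. FOXO1 overlapped 10 of the 11, where it overlapped 50.7% of all sites held by all 3 groups and 340 of the 358 sites (94.97%) at percentile 95 or more in every GR list. Of the 11, 8 reached that percentile in every list. The median percentile of the string was 99.2 and 96.9 for ctrl., 98.8 and 98.9 for cal. res. and 98.8 and 99.8 for CORT, where the median over all sites held by all 3 groups was 85.7 and 61.3, 76.3 and 71.5, and 81.9 and 87.1.

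The -167.6 kb site (chr4:150684480-150688121) stood among the highest regions of every list. By fold enrichment it ranked 2 and 3 in the ctrl. libraries, 6 and 4 for cal. res. and 7 and 9 for CORT. The fold enrichment was 172.6 and 82.0 for ctrl., 154.1 and 139.2 for cal. res. and 116.1 and 196.9 for CORT. Fold enrichment can be compared only inside a list, and in rank all 6 libraries placed the site among their 9 highest regions. FOXO1 bound the same site with a fold enrichment of 28.6, rank 41 of 8068 regions.

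The -97.9 kb site (chr4:150754320-150757797), which carries the palindromic element printed above, ranked 8 and 12 for ctrl., 16 and 11 for cal. res. and 6 and 6 for CORT. Its FOXO1 region ranked 316. The sites at -68.8, -73.2 and -105.1 kb had mean percentiles of 99.5, 99.2 and 98.8 over the 6 lists, and each overlapped FOXO1. Among all 51431 sites, 358 (0.696%) reached percentile 95 in every GR list, a limit set after the values were seen. Errfi1 had 9 of them in its window, Egfr had 1, and Erbb2, Erbb3 and Met had 0. Of 21938 protein-coding genes, 8.05% had at least 1 such site within 200 kb, and Errfi1 had more than any other. The lowest member of the string, at -66.8 kb, ranged from percentile 19.8 for ctrl. replicate 2 to 93.2 for CORT replicate 2.

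**Figure D1:**
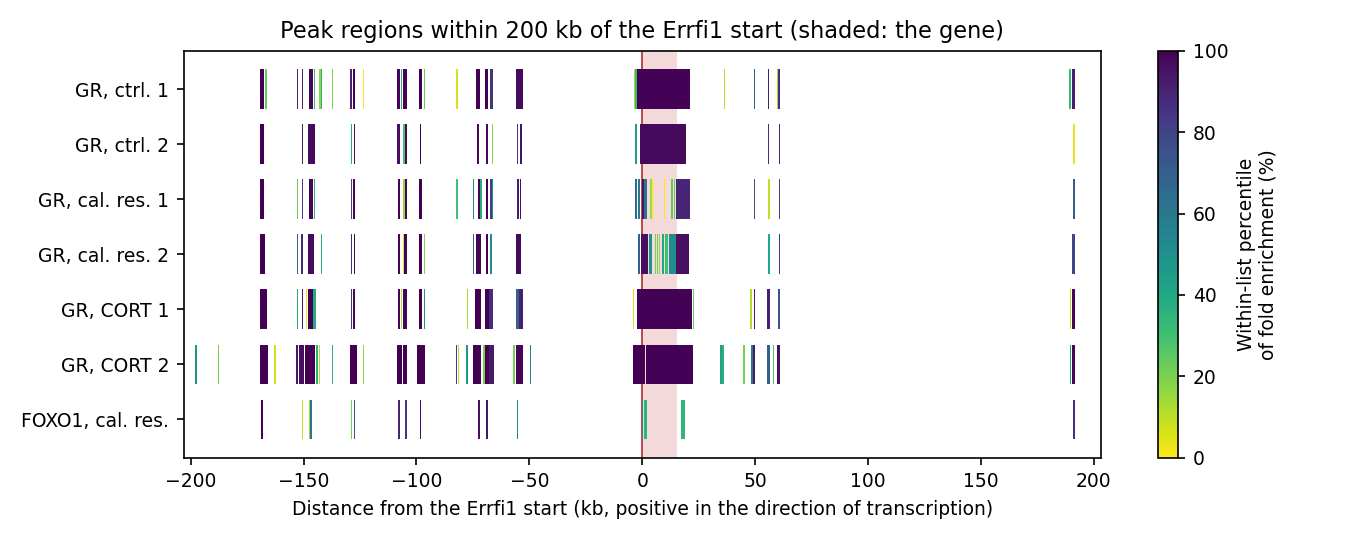
Regions of the 6 GR lists and the FOXO1 list by distance from the Errfi1 start (kb), 1 row per list, coloured by the within-list percentile of fold enrichment; the shaded band is the gene. Dark regions recur in every list between -167.6 and -54.3 kb, and the gene is touched by 1 or 2 regions in each ctrl. and CORT list, with a long one in each, and by 7 and 8 shorter regions in the cal. res. lists.

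The Errfi1 gene itself lay inside a merged GR site of 26.9 kb, centred at +9.3 kb. Only 4 sites in all were that long, this one included. Peak regions covered the gene from end to end in ctrl. replicate 1, ctrl. replicate 2 and CORT replicate 1, and 98.3% of it in CORT replicate 2. They covered 26.7% and 66.2% in the cal. res. replicates. The cal. res. values were thus below all 4 others. The longest region measured 23.2 and 20.2 kb in ctrl., 6.03 and 5.61 kb in cal. res. and 24.0 and 21.1 kb in CORT, and it was among the 3 longest of its list in all 6 libraries. In the ctrl. and CORT lists this region overlapped the gene, while in the cal. res. lists it began at +15.2 kb, past the gene end, and the longest region touching the gene measured 1.48 and 3.21 kb. Inside the merged site the percentile of the highest region was 99.5 and 97.6 for ctrl., 95.1 and 96.8 for cal. res. and 99.3 and 99.6 for CORT. Both cal. res. values were lower than the other 4. Within the first name style, the comparison is that of cal. res. with ctrl. replicate 2, where the covered share also fell short of the control. Gene coverage was examined after the values had been seen.

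Downstream of Errfi1 the shared sites were fewer and less evenly ranked. The +60.5 kb site, at Park7, stood at 87.8 and 89.4 for ctrl., 80.2 and 82.5 for cal. res. and 75.2 and 95.9 for CORT. The +191.0 kb site, whose nearest start was that of the clock gene Per3, stood at 92.1 and 3.46 for ctrl., 71.8 and 80.0 for cal. res. and 98.6 and 98.3 for CORT. Both CORT values were the highest there, and the ctrl. libraries lay at opposite ends of the lists.

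At Errfi1, cal. res. held 16 sites (43.2%, against 27.9% of all sites), ctrl. 15 (40.5%, against 21.4%) and CORT 20 (54.1%, against 43.7%). Single libraries moved these counts, ctrl. to 25 without ctrl. replicate 2 and CORT to 36 without CORT replicate 1. A site held by cal. res. and not by ctrl. is called a gain in cal. res., and the single one (2.70% of the 37 sites, against 11.5% of all sites), at -152.8 kb, had a peak in ctrl. replicate 1 at percentile 89.7. Gains in CORT numbered 5 (13.5%, against 24.3%), of which the sites at -77.7 and +48.4 kb had no peak in either ctrl. library. They stood at percentiles 13.5 and 47.4, and 11.5 and 59.1, in the CORT libraries.

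Egfr (ENSMUSG00000020122.16, chr11:16752203-16918158, plus strand) had high shared sites upstream and, in 3 of the 6 lists, a gene body filled with low regions. Its window held 106 sites, more than that of any other of the 21938 protein-coding genes. Only 8 (7.55%) were held by all 3 groups. The highest, at -10.1 kb (chr11:16740944-16743185), had a fold enrichment of 30.4 and 24.2 for ctrl., 43.9 and 18.4 for cal. res. and 45.0 and 49.7 for CORT. The corresponding percentiles were 98.8 and 99.4, 99.0 and 96.1, and 99.3 and 99.2. The 3 groups overlapped in percentile, and the lowest value was that of cal. res. replicate 2. This is the site with the palindromic element, and FOXO1 ranked 26 there.

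The -50 kb site of Egfr had percentiles of 96.5 and 94.6 for ctrl., 95.2 and 93.2 for cal. res. and 96.3 and 94.5 for CORT, with no separation of the groups. The -7.3 kb site stood at 86.9 and 88.3 for ctrl., 85.8 and 67.3 for cal. res. and 91.5 and 97.4 for CORT, and FOXO1 at 73.5. The intronic +48.5 kb site, present in all 6 lists, stood at 68.4 and 60.6 for ctrl., 86.7 and 88.5 for cal. res. and 63.2 and 89.6 for CORT. Both cal. res. values were above ctrl. there, and the CORT libraries lay 1 within the ctrl. values and 1 above all others. The -162.7 kb site showed how far replicates could differ. It stood at 32.0 and 98.7 for ctrl., 96.5 and 66.0 for cal. res. and 98.8 and 94.2 for CORT. At the start of Egfr a site centred at +0.6 kb was present in all 6 lists, at 74.1 and 46.7 for ctrl., 74.7 and 64.0 for cal. res. and 91.3 and 94.3 for CORT. Both CORT values were above the other 4 there. After reduction of every list to the same length, described below, the order at the start was kept. The values there were 79.4 and 82.0 for CORT, with a highest value of 53.9 elsewhere. At +48.5 kb the reduced lists gave 7.99 and 60.6 for ctrl., 75.7 and 82.6 for cal. res. and 13.0 and 67.2 for CORT. Both cal. res. values were then the highest at +48.5 kb.

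The gene body of Egfr was examined after its values had been seen. Regions covered 44.0% of it in ctrl. replicate 1, 24.4% in CORT replicate 1 and 24.3% in CORT replicate 2. In ctrl. replicate 2 and the cal. res. replicates they covered 2.07%, 1.36% and 1.87%. The split followed the style of the library names and not the groups, since the ctrl. libraries fell on either side. Of 93 sites centred more than 5 kb inside the gene, 83 were found in no list of the first style. The median percentile of these 83 was 32.3 over the 61 in ctrl. replicate 1, 29.7 over the 41 in CORT replicate 1 and 20.2 over the 49 in CORT replicate 2. The last region of CORT replicate 1 in the gene ended at +117.7 kb, and 26 further sites lay downstream of that point. FOXO1 overlapped 2 of the 93. The 3 lists with the filled gene body were also the 3 longest lists, and the part of list length in the pattern was not tested.

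**Figure D2:**
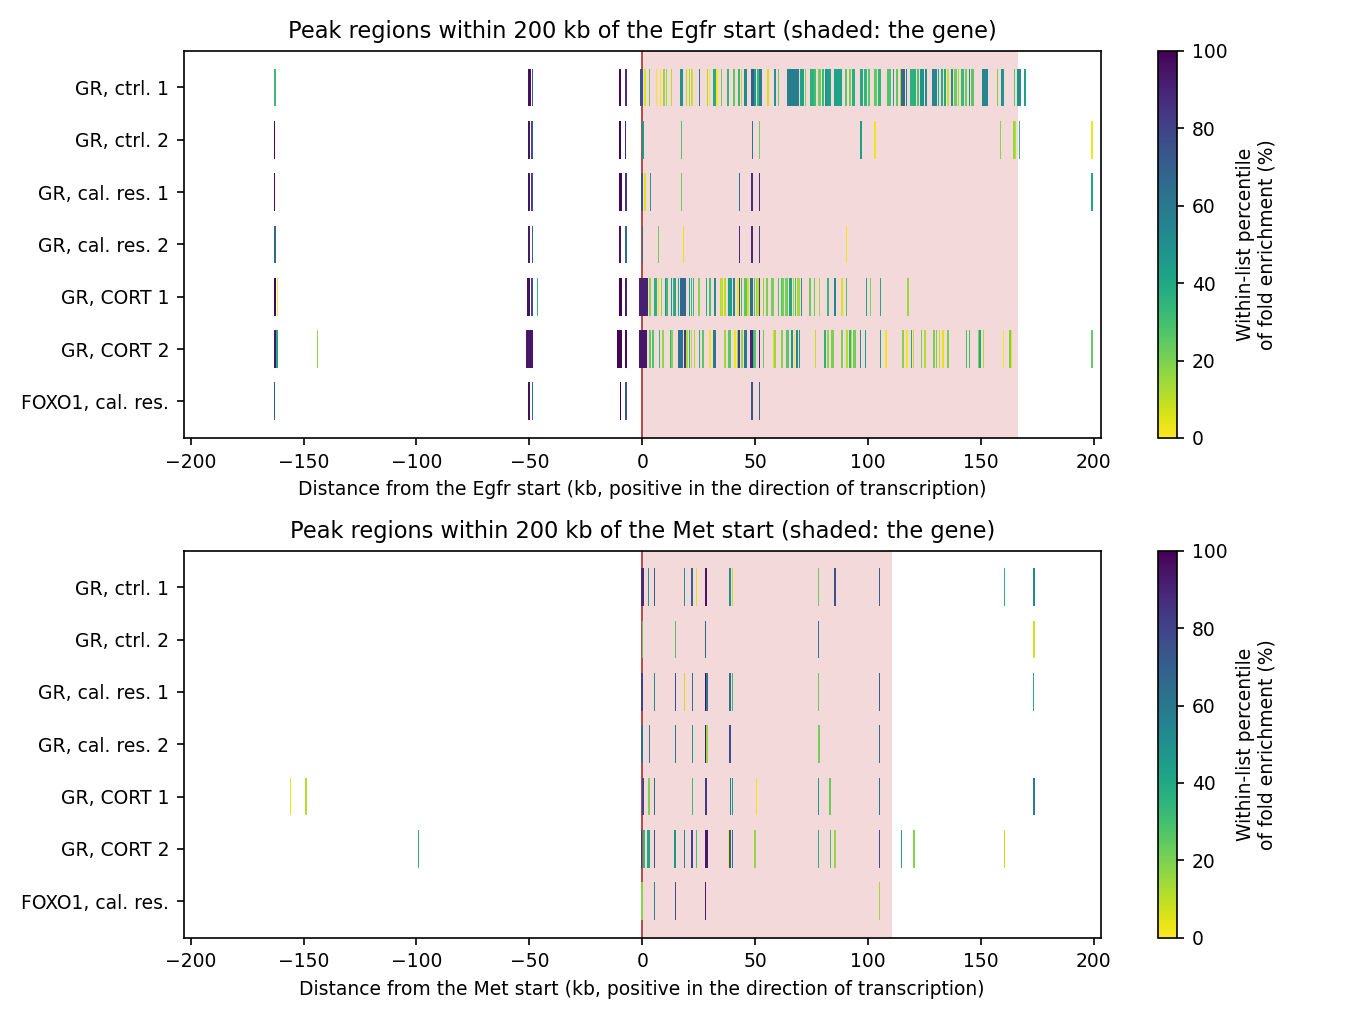
Regions of the 6 GR lists and the FOXO1 list by distance from the start of Egfr (top) and Met (bottom), in kb, coloured by within-list percentile, with the gene shaded. The Egfr gene is filled with low and middle-ranked regions in ctrl. replicate 1 and both CORT lists only. The sites at -50 and -10.1 kb stand in every list, and most Met regions lie inside the gene.

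Egfr accounted for 29 of the 59 gains in CORT over the 5 genes. As a share of its 106 sites this was 27.4%, near the 24.3% of all sites gained in CORT. Of the 29, 23 had a peak in ctrl. replicate 1 and 0 for ctrl. replicate 2. The remaining 6, at -161.7, +23.0, +36.5, +42.1, +53.6 and +61.8 kb, had no ctrl. peak, and their percentiles in the CORT lists stayed between 0.640 and 41.4. Over all sites, 2203 of the 12522 gains in CORT had no ctrl. peak. In lists of equal length, the gains in CORT at Egfr numbered 4. The single gain in cal. res., at +43.0 kb, stood at 62.4 and 86.8 for cal. res., 76.1 and 81.6 for CORT and 33.4 for ctrl. replicate 1.

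Erbb2 (ENSMUSG00000062312.5, chr11:98412470-98437716, plus strand) carried no GR or FOXO1 region inside the gene in any of the 7 lists. The site nearest to its start, at -12.2 kb in a coding exon of Pgap3, appeared in ctrl. replicate 1 at percentile 10.8 and in CORT replicate 2 at 42.3. The starts of 12 other protein-coding genes lay in the window, and 0 of the 29 sites had the Erbb2 start as the nearest. The highest site, at -119.1 kb (chr11:98293023-98293792), had percentiles of 99.0 and 94.0 for ctrl., 98.7 and 98.6 for cal. res. and 90.5 and 98.6 for CORT. Its groups overlapped, and no FOXO1 region was listed there. A neighbour at -114.7 kb stood at 94.3 and 55.9 for ctrl., 78.0 and 85.1 for cal. res. and 84.9 and 94.3 for CORT, with a FOXO1 region near the middle of its list.

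A site at +34.1 kb of Erbb2 lay in an intron of Grb7, which encodes an adaptor that binds ERBB2. It stood at 94.1 and 34.4 for ctrl., 80.2 and 83.8 for cal. res. and 96.3 and 96.1 for CORT, and it overlapped 2 FOXO1 regions, the higher of them at percentile 62.5. The CORT values were the highest, by less than the distance between the ctrl. libraries. The +173.8 kb site, in an intron of Ormdl3, ranged from 22.9 in ctrl. replicate 2 to 87.5 in CORT replicate 2. At +178.4 kb, beyond Ormdl3, the percentiles were 78.4 and 67.8 for ctrl., 67.4 and 61.7 for cal. res. and 95.4 and 92.3 for CORT. Gains in CORT at Erbb2 numbered 11 (37.9% of its sites, against 24.3% of all sites). Of these, 5 had no ctrl. peak (17.2% of its sites, against 4.28% of all sites), at -65.1, -55.7, -26.7, +165.6 and +172.3 kb. The highest of their values was 84.8, in CORT replicate 2 at +172.3 kb, where CORT replicate 1 had 41.2.

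Erbb3 (ENSMUSG00000018166.8, chr10:128567523-128589652, minus strand) lay among 18 other protein-coding starts, and 20 of its 36 sites (55.6%) were centred within 1 kb of a transcript start, against 25.0% of all sites. The share was 16.8% over the 5 genes and 2.83% at Egfr. The highest site, at -9.0 kb (chr10:128598187-128599112), had the Erbb3 start as its nearest. It stood at 96.6 and 84.8 for ctrl., 85.3 and 84.8 for cal. res. and 86.3 and 93.4 for CORT, and FOXO1 at 94.8. The groups overlapped. The next sites in order lay nearest to the starts of other genes. They were at -84.4 kb in a UTR of Suox, with 59.4 to 72.2 in 5 lists and 91.2 in CORT replicate 1, at -46.2 kb in a coding exon of Ikzf4, and at +23.7 and +87.0 kb. At +23.7 kb the values were 75.5 and 20.5 for ctrl., 45.5 and 34.0 for cal. res. and 79.6 and 93.2 for CORT. The ctrl. libraries there lay further apart than either of the other pairs. At the start of Erbb3 the +0.1 kb site stood at 80.6 for ctrl. replicate 1, 36.5 and 42.1 for cal. res. and 83.3 and 87.5 for CORT, and ctrl. replicate 2 had no peak. It was therefore counted as a gain in both cal. res. and CORT, although a ctrl. library ranked it above the cal. res. libraries. All 4 gains in cal. res. (11.1% of its sites, against 11.5%) and all 7 in CORT (19.4%, against 24.3%) at Erbb3 had a peak in ctrl. replicate 1. Most gains at any site did have a ctrl. peak. Over all sites, 433 of 5923 gains in cal. res. and 2203 of 12522 in CORT had none.

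Met (ENSMUSG00000009376.15, chr6:17463800-17573980, plus strand) had the fewest sites, 24, and the fewest shared by all 3 groups, 3 (12.5%). Most of the sites lay inside the gene, and the 3 sites upstream of the start, the nearest at -99.4 kb, were each in 1 list. The highest, at +28.3 kb in a coding exon (chr6:17491398-17492757), stood at 94.9 and 67.6 for ctrl., 95.7 and 93.3 for cal. res. and 82.8 and 93.2 for CORT. FOXO1 stood at 92.5. The cal. res. values were high and close together, and ctrl. replicate 1 lay between them. In lists of equal length the values were 85.2 and 67.6 for ctrl., 92.1 and 89.9 for cal. res. and 59.3 and 78.8 for CORT. Both cal. res. values were then the highest. The site at the start, +0.3 kb, was present in all 6 lists at 24.1 to 87.6, both of these extremes being ctrl. libraries, and FOXO1 was low there, at 18.3.

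Met gave 4 of the 11 gains in cal. res. (16.7% of its sites, against 11.5% of all sites), at +14.6, +22.0, +38.8 and +105 kb. The last 3 also had a peak in ctrl. replicate 1 and in both CORT libraries. In lists of equal length, both cal. res. values were above the others at +38.8 and +105 kb, but not at +22.0 kb. The +14.6 kb site (chr6:17478068-17478645), in an intron, was the single site of the 232 held by cal. res. only. It stood at 75.2 and 59.9 for cal. res., 28.5 for ctrl. replicate 2 and 47.4 for CORT replicate 2, and had no peak in ctrl. replicate 1 or CORT replicate 1. Both cal. res. values were above the others. FOXO1 bound there at percentile 75.5 of its rows, and the forkhead sequence lay in the window printed above. Of the 7 gains in CORT (29.2%, against 24.3%), the +83.1 kb site had no ctrl. peak, at percentiles 23.3 and 28.9.

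**Figure D3:**
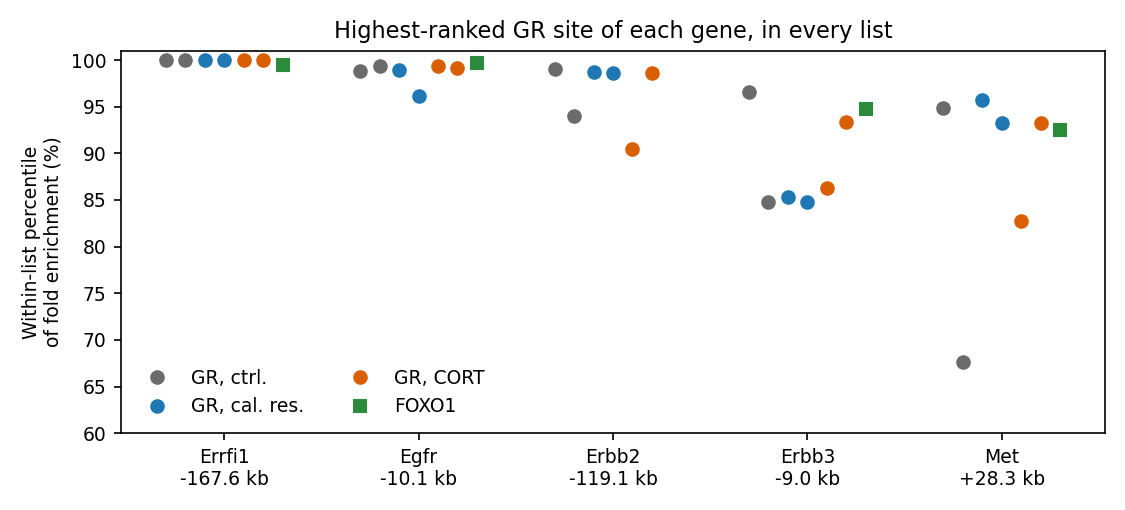
Within-list percentile (y axis, %, from 60) of the highest-ranked GR site of each gene, 1 point per library and group and a square for the FOXO1 list. The Errfi1 points all sit at the top, the Erbb3 and Met points spread with a ctrl. library at 67.6 for Met, and the Erbb2 site has no FOXO1 square.

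The starts of the genes thus differed in GR occupancy. The Errfi1 start lay in the gene-spanning site, and those of Egfr and Met had a peak in all 6 lists. Erbb3 lacked the peak in ctrl. replicate 2, and Erbb2 had no site centred within 12 kb of its start.

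Over the 5 genes together, ctrl. held 54 of the 232 sites (23.3%, against 21.4% of all sites), cal. res. 53 (22.8%, against 27.9%) and CORT 107 (46.1%, against 43.7%). Sites held by all 3 groups numbered 42 (18.1%, against 15.7%). The ctrl. and CORT shares lay near those of all sites. Gains in cal. res. numbered 11 (4.74%, against 11.5%) and gains in CORT 59 (25.4%, against 24.3%). Of the 59, 45 had a peak in ctrl. replicate 1 and 0 in ctrl. replicate 2. Over all sites, 2203 of the 12522 gains in CORT had no peak in either ctrl. library, so a ctrl. peak was usual. Without ctrl. replicate 2, the shortest list, gains in CORT numbered 14 and gains in cal. res. 1. Without CORT replicate 1 the gains in CORT numbered 129, and without cal. res. replicate 2 those in cal. res. numbered 28. Of the gained sites, 10 were gained in both groups. Of the cal. res. gains, 0 lacked a peak in both ctrl. libraries (0.842% of all sites did), and of the CORT gains 14 did (6.03%, against 4.28%). These 14 had a median percentile of 25.6 in the CORT lists, and FOXO1 overlapped 0 of them. Sites held by cal. res. only numbered 1 (2.39% of all sites) and by CORT only 49 (21.1%, against 15.2%), of which 28 were at Egfr.

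Within the name styles, ctrl. replicate 2 lacked a peak at 10 of the 53 cal. res. sites (18.9%), against 40.9% of the 14354 cal. res. sites in all. At Errfi1 this was 1 of 16, and at Met 3 of 7. Ctrl. replicate 1 lacked a peak at 14 of the 107 CORT sites (13.1%), against 10.6% of 22464. At Erbb3 this was 0 of 19, and at Erbb2 5 of 21.

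When each list was reduced to its 12458 regions of smallest p-value, the size of the shortest, ctrl. held 36 sites over the 5 genes, cal. res. 37 and CORT 48. Errfi1 kept 15, 14 and 16 sites in the 3 groups, and Egfr changed from 12, 9 and 37 to 5, 8 and 9. At Met the numbers were 2, 6 and 4, so that cal. res. held the most. The gains in CORT fell from 59 to 13 and those in cal. res. from 11 to 9.

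**Figure D4:**
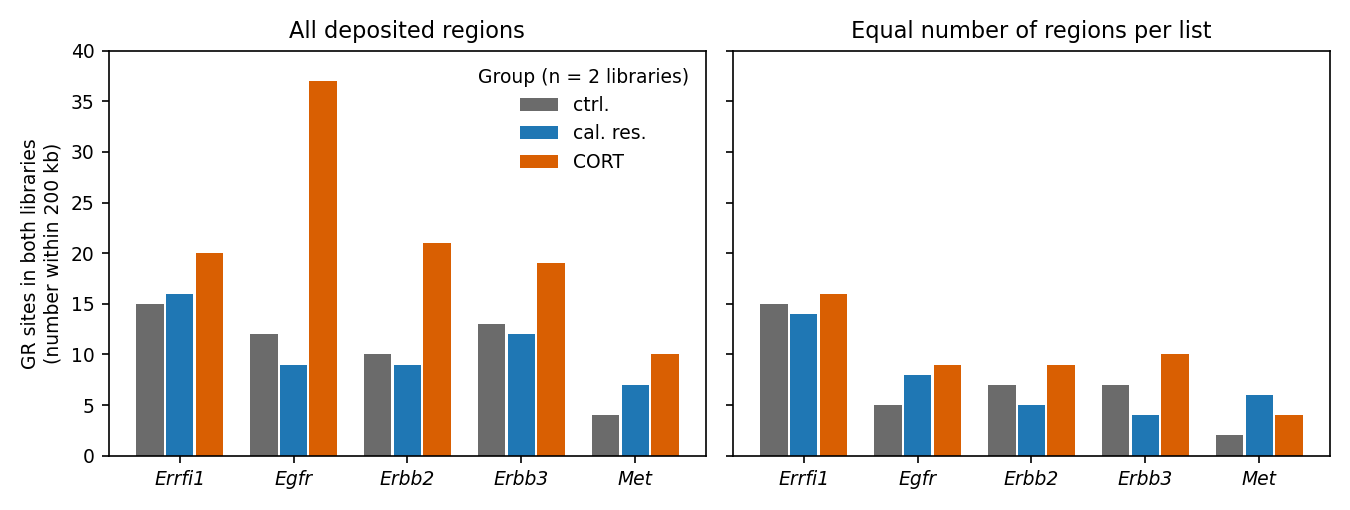
Number of GR sites found in both libraries of a group (bars, n = 2 libraries each) within 200 kb of each gene, with all regions (left) and with 12458 regions per list (right). CORT has the tallest bar at every gene on the left, 37 at Egfr, while on the right the bars of Errfi1 are 15, 14 and 16 and those of Egfr 5, 8 and 9.

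FOXO1 overlapped 34 of the 232 sites (14.7%, against 13.9% of all sites), 12 of them at Errfi1, 6 at Egfr, 5 at Erbb2, 6 at Erbb3 and 5 at Met. Among the 42 sites held by all 3 groups the number was 28 (66.7%, against 50.7% of all such sites). At Errfi1 it was 12 of 15 and at Egfr 6 of 8. All 20 FOXO1 rows at Errfi1, which were 16 distinct regions, and all 7 at Egfr fell in sites held by ctrl., cal. res. and CORT alike. Of 21938 protein-coding genes, 22 had more FOXO1 rows in their window than Errfi1. At Met, 2 of 5 rows fell in sites held by ctrl. and 4 of 5 in sites held by cal. res. The matching shares over all FOXO1 rows are not given here, so these row counts only describe the genes. The median percentile of the rows was 53.6 at Errfi1, 74.3 at Egfr, 40.9 at Erbb2, 72.1 at Erbb3 and 55.1 at Met. A single row, at -69.7 kb of Erbb2, had no GR site.

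**Figure D5:**
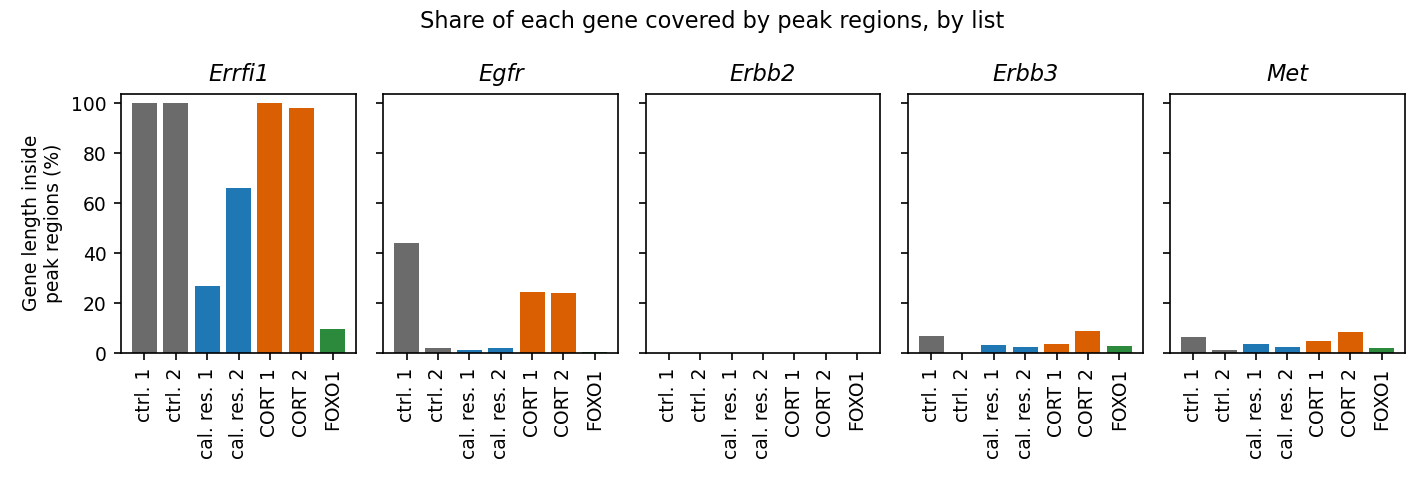
Share of the annotated length of each gene that lies inside peak regions (%), 1 bar per list. Errfi1 is covered almost whole in the ctrl. and CORT lists and by 26.7% and 66.2% in cal. res.; Egfr is covered by 44.0% in ctrl. replicate 1 and by 24.4% and 24.3% in CORT, and Erbb2 has no bar.

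Short sequence matches were counted in the 200 bases around the summit of every site. The palindromic GR element was found in 7 of the 232 sites (3.02%, against 1.89% of 51428 sites). Of these, 3 were at Errfi1 (8.11% of its sites), 2 at Egfr (1.89%) and 2 at Erbb2 (6.90%). The hexamer AGAACA, which can overlap that element, was found in 46 (19.8%, against 18.4%), and 24 of these were at Egfr (22.6% of its sites). The forkhead sequence was found in 13 (5.60%, against 5.19%), 6 at Egfr (5.66% of its sites) and 4 of 24 at Met (16.7%). The STAT-type sequence TTCNNNGAA was found in 17 (7.33%, against 8.16%), and the C/EBP-type sequence TTGCNNAA in 23 (9.91%, against 15.1%). The HNF4-type sequence CAAAGTCCA was found in 0 sites (1.47% of all sites). At the 42 sites held by all 3 groups, the palindromic element was found in 3, at Errfi1 in 2 and at Egfr in 1. The matching share over all sites held by all 3 groups is not given here.

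In sites present in all 6 lists, the order of the groups in percentile can be read directly. Of 42 such sites at the 5 genes, 5 had both cal. res. values below and both CORT values above the ctrl. values (5.78% of 8097 such sites did), and 0 showed the opposite order (0.321%). The 5 sites lay at -150.8 kb of Errfi1, -7.3 and +17.5 kb of Egfr, +178.4 kb of Erbb2 and -46.2 kb of Erbb3. In lists of equal length, 3 of the 5 stayed in all lists and 0 kept that order.

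The wider pathway was described by 72 further genes, from ligands to transcriptional targets, each read in its own 200 kb window. A site held by ctrl. was found at 64 of them (88.9%, against 73.5% of protein-coding genes), by cal. res. at 62 (86.1%, against 73.5%) and by CORT at 67 (93.1%, against 80.6%). A gain in cal. res. was found at 52 (72.2%, against 58.4%) and in CORT at 66 (91.7%, against 74.9%). A CORT gain with no ctrl. peak was found at 37 (51.4%, against 37.7%), and a FOXO1 row at 56 (77.8%, against 63.7%). All 5 members had at least 1 site or row of each of these kinds, except that Erbb3 had no CORT gain without a ctrl. peak. The windows of the 72 genes held a median of 16.5 sites, against 12 for all protein-coding genes. The shares above were not adjusted for this.

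Among the ligands, Egf had 37 sites, 7 of them held by all 3 groups, and Nrg4, a neuregulin, had 38, with 5 held by all 3. Nrg1 and Hgf, the ligand of MET, had 0 sites. Hpn, which encodes a protease that activates the precursor of hepatocyte growth factor, had 13 of its 37 sites held by all 3 groups and 11 FOXO1 rows. Erbb4, the remaining receptor of the family, had 4 sites and 0 held by all 3 groups. Of the feedback inhibitors, Ptpn1, a phosphatase of receptor tyrosine kinases, had 18 of its 57 sites held by all 3 groups, where Errfi1 had 15 of 37. Ptpn1 and Errfi1 each had 20 FOXO1 rows. Sites at percentile 95 in every list numbered 6 at Ptpn1 and 9 at Errfi1. Dusp6, which inactivates ERK, had 9 of its 35 sites held by all 3 groups. It had 7 gains in cal. res., where Map2k2 had 9, and Hras and Ptpn1 had 7 each. Of all sites, 11.5% were gains in cal. res. Grb7 shares the 29 sites of Erbb2, so its counts are not separate from those of that gene. Overlap among the other windows is not given here, so a site may be counted at several pathway genes.

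The genes whose numbers of regions in the 7 lists were closest to those of each member were found by Euclidean distance, among protein-coding genes on another chromosome or over 400 kb away. For Errfi1 they were Mlc1 (5.74), Apoa1 (7.0) and Apoc3 (7.0), of which the last pair are neighbours. For Egfr the nearest were far, Lancl1 (24.7), Cps1 (27.7) and Rxra (35.5), with 70, 67 and 65 regions in ctrl. replicate 1, where Egfr had 82. For Erbb2 they were Mup21 (1.73), Mup20 (2.0) and Banp (2.45), for Erbb3 Kcnk5 (1.73), Ccdc40 (2.0) and Tbc1d16 (2.0), and for Met Dyrk1a (2.0), Egr1 (2.24) and Rheb (2.24). Overlap among the windows of the like genes is not given here, so further like genes of the same member may share sites.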

How the data were processed

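Peak lists of 6 GR ChIP-seq libraries (ctrl., cal. res. and CORT, 2 each) and 1 FOXO1 list from merged cal. res. libraries were used. Samples were grouped by their titles. As its methods state, the authors used BWA and the mm10 genome, dropped duplicate and multiply mapping reads, and ran MACS2, separately for each GR library. The fold enrichment that the authors deposited is the ratio of summit signal to local background. Their p-values and q-values were deposited on the -log10 scale. The p-values of the FOXO1 list were not used. The largest q-value was 0.0994 to 0.0998 in the GR lists and 9.84e-06 in the FOXO1 list. The study states a general sequencing depth but not that of each library. Read files were not analysed here, so the depth of each library is unknown, and list lengths were used in its place.

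Rows with the same start and end were reduced to the highest summit. Regions sharing at least 1 bp were merged into sites. Genes and starts were taken from GENCODE M21, and sequences from GRCm38, within whose 21 chromosome lengths all peaks lay. Named sites of each gene were the one nearest to the start, the 5 with the highest mean percentile over the lists (absent counted as 0) and gains with no ctrl. peak, and 3 like genes were named. Further sites and pathway genes were named after their values were seen. The members, the pathway list and the rules were chosen with earlier results of these data known, and no test was made of the members. Merging was tested on simulated intervals. Alternatives were q of at most 0.01 or 1e-05, equal list lengths, 50% overlap, either library, windows of 100 or 50 kb, the nearest start, and leaving out each library. Leaving out the Egfr gene body was added after the data were seen. Software was Python 3.11.15 with NumPy 2.4.6, pandas 2.3.3 and matplotlib 3.10.9.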

Additional observations from a re-analysis of the deposited data

Results flagged for a closer look

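At 5 sites the cal. res. libraries both lay below the ctrl. libraries in percentile and the CORT libraries both above them. This difference was not tested. The mean percentile of cal. res. minus that of CORT was -10.2 at Errfi1 -150.8 kb, -17.9 at Egfr -7.3 kb, -61.6 at Egfr +17.5 kb, -29.3 at Erbb2 +178.4 kb and -34.3 at Erbb3 -46.2 kb. With 12458 regions per list, Egfr +17.5 kb stayed in 3 lists and Erbb3 -46.2 kb in 4. The other 3 sites stayed in all 6, and the ctrl. values then overlapped those of another group at each of them.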

How the results depend on the processing

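Over the 5 genes, ctrl. held 54 sites, cal. res. 53, CORT 107 and all 3 groups 42, with 11 gains in cal. res., 59 in CORT and 34 overlaps with FOXO1. A q of at most 0.01 and an overlap of 50% kept each of these counts within 1.5 times. A q of at most 1e-05 gave 25 sites for ctrl., 65 for CORT and 22 for all 3 groups. Equal list lengths gave 48 for CORT and 13 gains in CORT. Counting a site in either library gave 168, 85, 199 and 78 held sites and 6 gains in cal. res. A window of 100 kb gave 32 ctrl. sites and 22 FOXO1 overlaps. A window of 50 kb gave 17, 21, 44 and 15 held sites, 6 gains in cal. res., 28 in CORT and 14 FOXO1 overlaps. Sites nearest to a member start numbered 18, 23, 52 and 17 held, 6 and 35 gained and 17 with FOXO1. Without the Egfr gene body, chosen after the data were seen, gains in CORT numbered 32. These windows hold fewer sites by construction.

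Without single libraries the counts ranged from 54 to 165 for ctrl., 53 to 74 for cal. res., 106 to 179 for CORT, 42 to 52 for all 3 groups, 1 to 28 for gains in cal. res., 14 to 129 for gains in CORT and 34 to 37 for FOXO1. The extremes for gains in cal. res. came without ctrl. replicate 2 (1) and without cal. res. replicate 2 (28), and cal. res. replicate 1 left out gave 18. Those for CORT came without ctrl. replicate 2 (14) and without CORT replicate 1 (129, and 89 without CORT replicate 2). Of 210 counts per gene under an alternative, 69 moved by more than 1.5 times. Of 75 percentiles of the highest-ranked sites, 16 moved by at least 1 SD, which could be a small change. For Errfi1 in CORT, equal list lengths changed 99.98 to 99.94, and this counted as a move. Peak lists of unequal length limit every count, and the depth of each library is unknown. The labels give no pairing of the libraries, and no test was made, so no paired analysis was run.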
